A study of Homo sapiens with 18 samples.

Results

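The p53 target genes described here are 31 genes that the transcription factor p53 is known to switch on. They were listed by name as known targets, with no measured value in the rule, and each was read through the probe set of highest mean intensity among those of its gene. The array annotation used assigns a probe set to that gene alone for 27 of the 31, and 26 of them passed the intensity filter and were among the 12171 genes tested. EDA2R, a death receptor of the tumour necrosis factor family, lay near background, with intensities from 1.59 to 35.2 over the 18 arrays, and was not tested. BBC3, which encodes the apoptosis inducer PUMA, was covered only by a probe set shared between genes, and the expression of FDXR, BTG2 and TRIM22P1 was not analysed here.

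p53 is held at a low level by the ubiquitin ligase MDM2 and is stabilised when DNA is damaged or cells are otherwise stressed. It then binds short response elements in DNA and raises a set of genes that stop the cell cycle, repair DNA, adjust metabolism or start apoptosis, and also MDM2, which closes a feedback loop on p53. In breast epithelium this response limits the growth of cells that carry damaged DNA or an activated oncogene.

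The samples came from MCF10A, an immortalised, non-tumorigenic human breast epithelial line in which the CDKN2A locus is deleted and MYC amplified. MCF10A-CT was the control line kept in standard medium, MC26 was MCF10A exposed for a long time to BMP2 and IL6, and M1B26 came from MCF10A cells sorted for the receptor BMPR1B, exposed to BMP2 and IL6, and expanded from 3 colonies picked in soft agar. The sample labels give BMP2 at 5 ng/ml, the growth protocol gives 10 ng/ml, and IL6 is given at 10 ng/ml. Each line was measured unsorted and as CD10- and CD10+ populations separated by flow cytometry on the surface peptidase CD10, with 2 arrays in each of the 9 groups. Unsorted cells were frozen after trypsin, whereas the other populations were also stained and passed through the sorter, so the handling and the population cannot be told apart. The 2 arrays of a group are labelled as biological replicates, with no further word on how separate the cultures were, and M1B26 stands for a few selected colonies of 1 line.

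Array medians were all 16.65 on the intensity scale, and the 2 arrays of a group correlated at 0.949 to 0.979 over genes. With 2 arrays a group, the median standard error of a difference within 1 population was 0.296 on the log2 scale. All 6 mammary epithelial markers that have a probe set were above the filter, with a summed intensity of 10400 to 22500 per array. Their levels were uneven, however: CDH1, which encodes E-cadherin, read 39.6 and 54.2 in CD10+ M1B26 cells and 481 to 1780 on every other array, and EPCAM, an epithelial adhesion molecule, read 111 and 190 there and 529 to 3620 elsewhere. Of the leukocyte, fibroblast and endothelial markers, 2, 1 and 1 were above the filter, with summed intensities of at most 501, 367 and 69.9. Those above it were CD14, with a mean log2 level of 8.07, ITGAM (4.57), COL1A1 (6.86) and PECAM1 (5.32), and the defining markers PTPRC, CDH5 and PDGFRB were below it.

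Promoter sequences were available in RefSeq (GRCh38.p14) for 25 of the 31 genes, as 37 windows of 300 bases that run from 250 bases before to 50 after an annotated start. GADD45A, PHLDA3, RRM2B, TNFRSF10B, TP53INP1 and TRIM22P1 had no window. The windows were searched for the p53 consensus decamer, a 10-base motif that reads the same on both strands, and for a pair of decamers up to 13 bases apart with at most 2 mismatches in their 20 bases. The 2 searches overlap, because an exact decamer can be part of such a pair. An exact decamer occurred in 7 members (AEN, DDB2, FAS, FDXR, PLK2, RPS27L and SESN1), against 8.06% of the 27305 genes with a window. A pair occurred in 7 members (AEN, CCNG1, DDB2, FAS, FDXR, MDM2 and SESN1), against 9.53% of genes. Neither was found in the windows of CDKN1A, BAX, XPC, SPATA18, KITLG or TIGAR, which says only that these letters are not in these windows.

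The stretches below are those of members that differed between groups, each written 5′ to 3′ on the gene's strand with the decamers in capitals. MDM2 is shown from the start inside its annotated span (chr12:68808903-68808962, plus strand), with a pair that has no bases between and 2 mismatches. RPS27L (chr15:63157507-63157556, minus strand), PLK2 (chr5:58460189-58460238, minus strand) and SESN1 (chr6:109009008-109009057, minus strand) are shown for an exact decamer. AEN (chr15:88621286-88621339, plus strand) is shown for a pair with no bases between and 2 mismatches, the first of its decamers exact. CCNG1 (chr5:163437509-163437570, plus strand) is shown for a pair 9 bases apart with 2 mismatches.
MDM2: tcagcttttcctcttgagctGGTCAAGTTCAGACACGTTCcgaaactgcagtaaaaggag
RPS27L: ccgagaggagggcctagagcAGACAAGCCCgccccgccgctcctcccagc
AEN: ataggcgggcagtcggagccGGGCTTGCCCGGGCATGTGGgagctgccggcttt
PLK2: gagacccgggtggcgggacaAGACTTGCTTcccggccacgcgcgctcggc
SESN1: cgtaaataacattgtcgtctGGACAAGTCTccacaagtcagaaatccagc
CCNG1: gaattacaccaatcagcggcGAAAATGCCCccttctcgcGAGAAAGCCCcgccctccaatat

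The CD10+ cells of M1B26 were the group in which p53 target genes most often reached their highest level. They held the highest group mean for 12 of the 26 tested members, against 26.2% of all genes tested. They held the lowest for 1, the death receptor gene FAS, against 10.3% of all genes. CD10+ MC26 cells held the lowest mean for 6 members (CDKN1A, XPC, SPATA18, CCNG1, PPM1D and RPS27L), against 13.7% of all genes. They held the highest for 0, where only 2.93% of all genes were highest. The median range between the highest and the lowest group mean was 1.22 on the log2 scale over members and 1.03 over all genes. TP53INP1, which promotes autophagy and apoptosis, had the widest range at 2.53, followed by BAX at 2.16, KITLG at 2.15 and TIGAR at 2.10. TRIAP1, an inhibitor of apoptosis, had the narrowest at 0.48. In all, 19 of the 26 members passed an adjusted p of 0.05 in at least 1 of the 24 contrasts fitted with limma, where 60.5% of all genes did. A difference between lines within 1 population was called for 16 members (44.6% of all genes), and a difference between sorted and unsorted cells of a line, or between lines in it, for 10 (27.2% of all genes). The members never called were FAS, TP53I3, DDB2, GADD45A, PLK3, TRIAP1 and PPM1D.

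**Figure D1:**
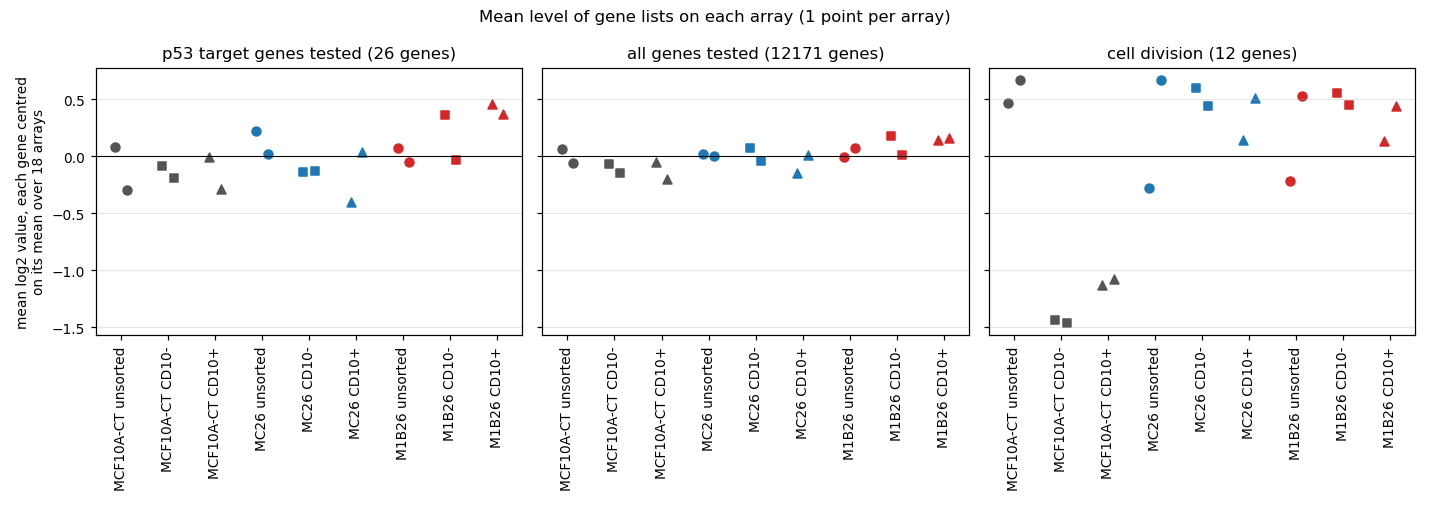
Mean log2(intensity + 1) of each array, after centring every gene on its mean over the 18 arrays, for the 26 p53 target genes tested, all 12171 genes tested and 12 cell-division genes, with 1 point per array in each of the 9 groups. Both CD10+ M1B26 arrays (0.46 and 0.37) are the highest for the p53 target genes. CD10- M1B26 replicate 1 is close behind at 0.36, with replicate 2 at -0.03. The 4 sorted MCF10A-CT arrays stand far below the rest for the cell-division genes.

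Averaged over the 26 members after centring each gene on its mean over all arrays, the CD10+ M1B26 arrays stood at 0.46 and 0.37 and the CD10+ MC26 arrays at -0.40 and 0.04. The 2 groups did not overlap, and the 2 MC26 arrays lay further apart than the 2 of M1B26. Over all genes tested the same arrays stood at 0.14 and 0.16 for M1B26 and at -0.15 and 0.01 for MC26, so all genes shared part of the distance. The CD10- M1B26 arrays stood at 0.36 and -0.03 over the members and at 0.18 and 0.01 over all genes. Replicate 1 of CD10- M1B26 was thus close to the lower CD10+ M1B26 array (0.37) over the members. Fewer cells that express a gene and less RNA per cell cannot be told apart in such pooled extracts.

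The comparison of M1B26 with MC26 sets the sorted and colony-selected line against the one that had only the cytokine exposure. The length of exposure may differ too. According to the paper, BMPR1B-sorted cells transformed much faster, in a few weeks, and their colonies were expanded with both cytokines. In CD10+ cells 8 of the 26 members rose in M1B26 and 0 fell, where 9.12% of all genes were higher, 2.56% lower and 11.7% either (limma, adjusted p under 0.05). These were CDKN1A, BAX, TP53INP1, RRM2B, XPC, SPATA18, CCNG1 and RPS27L, with differences of 1.67-fold to 3.38-fold. On GRCh38.p14, CDKN1A lies at chr6:36676463-36687332, BAX at chr19:48954875-48961798, XPC at chr3:14145147-14178601, SPATA18 at chr4:52051304-52097299, CCNG1 at chr5:163437571-163457640 and RPS27L at chr15:63148249-63157477. The median difference was 0.61 over the members and 0.20 over all genes, and 20 of the 26 were above 0. In the same cells the epithelial markers CDH1 and EPCAM were lower in M1B26 by -3.93 ± 0.24 and -2.94 ± 0.46 and KRT8, a luminal keratin, was higher by 1.44 ± 0.24 (adjusted p = 3.34e-07, 0.000851 and 0.00134), while KRT5, KRT14 and KRT18 were not called; the part of this shift in the members' values was not tested. With quantile normalisation or with arrays centred on the median of the tested genes, 5 members remained (BAX, TP53INP1, RRM2B, SPATA18 and RPS27L) and the medians were 0.39 and 0.33, while those over all genes became -0.03 and -0.08, with 4.59% and 4.16% of all genes then higher and 4.5% and 5% lower. Without CD10+ MC26 replicate 1, RPS27L and SPATA18 were the 2 members called and the median was 0.37. Without CD10+ M1B26 replicate 1, the 2 called were TP53INP1 and RPS27L, and without its replicate 2 the 3 called were TP53INP1, SPATA18 and RPS27L.

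**Figure D2:**
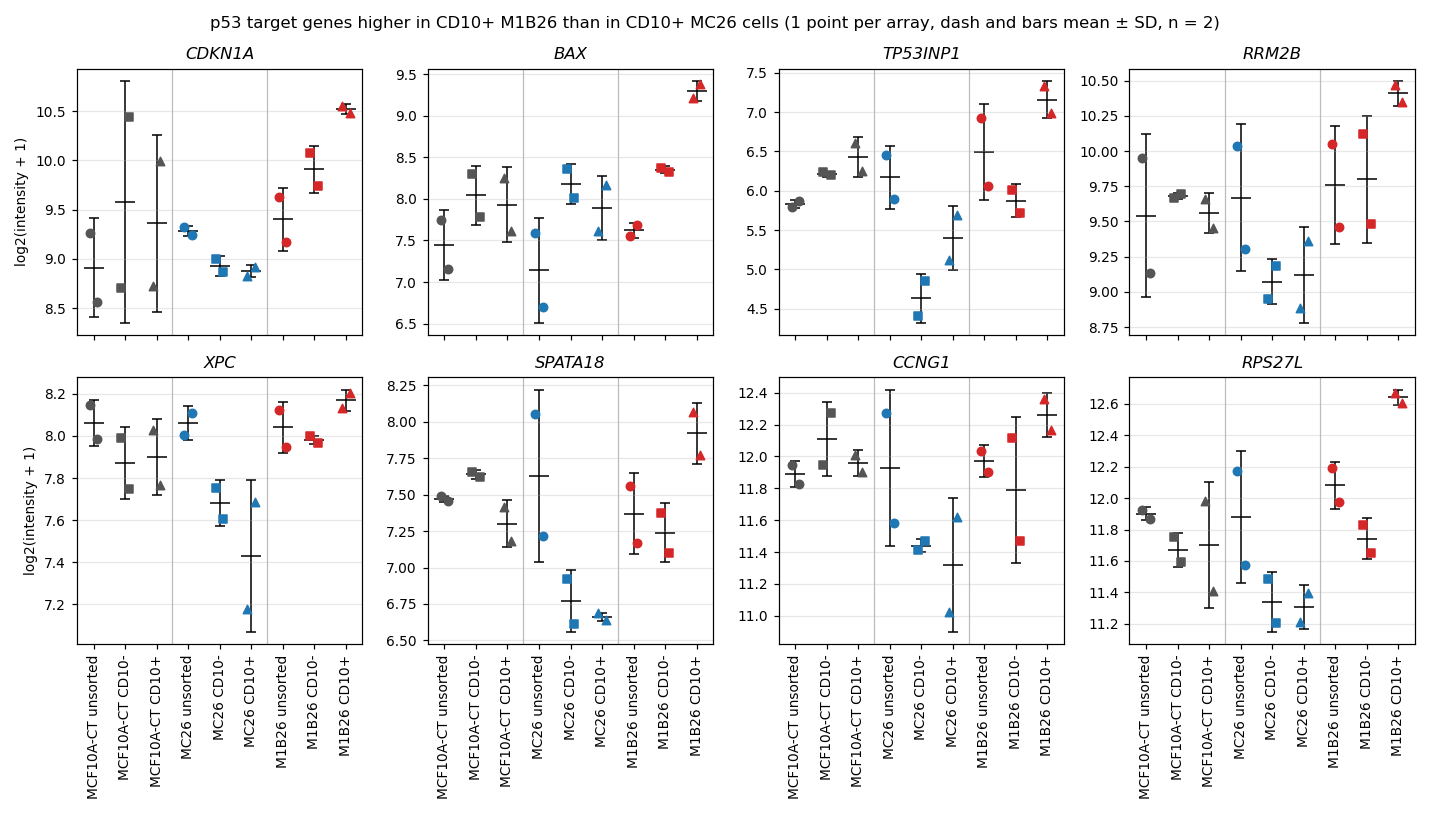
Log2(intensity + 1) of the 8 p53 target genes that were higher in CD10+ M1B26 than in CD10+ MC26 cells, with 1 point per array in each of the 9 groups, a dash for the group mean and bars of ± 1 SD (n = 2); each gene has a y axis of its own. In every panel both CD10+ M1B26 arrays lie above both CD10+ MC26 arrays; the genes were chosen by this same difference, so the separation is not a further result.

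Among genes of arrest, CDKN1A encodes p21, the inhibitor of cyclin-dependent kinases through which p53 stops the cell cycle. Its intensities were 1500 and 1430 in CD10+ M1B26 and 454 and 484 in CD10+ MC26 cells, and the 2 groups were well apart. The log2 difference was 1.64 ± 0.45 (SE; limma adjusted p = 0.0284). In CD10- cells the arrays read 1080 and 857 in M1B26 against 511 and 465 in MC26, a log2 difference of 0.98 that did not pass the test (adjusted p = 0.681). The other early response genes went with no call: PLK2 (-0.09), PLK3 (-0.13), GADD45A (-0.14) and SERTAD1 (-0.35) were all slightly below 0 in CD10+ cells.

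Among genes of apoptosis, BAX encodes the protein that opens the outer mitochondrial membrane. It read 593 and 664 in CD10+ M1B26 cells and 195 and 287 in CD10+ MC26 cells, with all other M1B26 arrays at 187 to 331. The log2 difference was 1.40 ± 0.32 (adjusted p = 0.0111), and another BAX probe set gave 1.92. TP53INP1 read 160 and 126 against 33.7 and 50.7, a log2 difference of 1.76 ± 0.33 (adjusted p = 0.00333). Its 2 highest arrays of all 18 were thus those of CD10+ M1B26 cells, and its lowest 4 were those of sorted MC26 cells. The death receptor genes were not called: TNFRSF10B, which encodes the TRAIL receptor DR5, read 2910 and 2640 against 1960 and 1920, and FAS had a log2 difference of -0.35. PHLDA3, which restrains AKT, differed by 0.59 (adjusted p = 0.125), and AEN, a nuclease of apoptosis, by -0.01.

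Among genes of DNA repair, RRM2B encodes the p53-induced subunit of ribonucleotide reductase, which supplies nucleotides. It read 1420 and 1300 in CD10+ M1B26 and 471 and 657 in CD10+ MC26 cells, a log2 difference of 1.29 ± 0.31 (adjusted p = 0.0152). XPC, which recognises damage in nucleotide excision repair, differed by 0.74 ± 0.21 (adjusted p = 0.0363). XPC had the smallest of the 8 differences, and its 2 CD10+ MC26 arrays, at 144 and 205, were apart from 280 and 294 in M1B26. The other repair genes, DDB2 and POLH, were not called.

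SPATA18 encodes a protein of mitochondrial quality control. It read 267 and 218 in CD10+ M1B26 against 102 and 98.6 in CD10+ MC26 cells, a log2 difference of 1.26 ± 0.27 (adjusted p = 0.00682). Another SPATA18 probe set, near background, gave 2.47. RPS27L, a ribosomal-protein paralogue that p53 induces, read 6520 and 6230 against 2370 and 2700. Its log2 difference of 1.33 ± 0.21 (adjusted p = 0.000825) had the smallest p of the 26 members and stayed past the threshold when any 1 array was left out, and the remaining RPS27L probe sets gave 0.89 and 1.59.

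Among the genes that act back on p53, CCNG1, a cyclin that recruits a phosphatase to MDM2, differed by 0.94 ± 0.25 (adjusted p = 0.0223). MDM2 read 1630 and 1540 in CD10+ M1B26 against 884 and 1120 in CD10+ MC26 cells. The log2 difference of 0.66 ± 0.23 missed the threshold (limma adjusted p = 0.0736). PPM1D, the phosphatase WIP1, differed by 0.71 (adjusted p = 0.152). ZMAT3, an RNA-binding protein of growth control, read 1320 and 1220 against 498 and 900 and was also just outside, at 0.92 ± 0.30 (adjusted p = 0.0594).

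In CD10- cells 0 members were called between M1B26 and MC26, where limma called 0.0822% of all genes, and the median was 0.32 over the members and 0.09 over all genes. At an unadjusted p under 0.05, 4 members were higher (MDM2, CDKN1A, TP53INP1 and RRM2B), where 5.47% of all genes were higher and 1.73% lower. In unsorted cells 0 members were called, where 0.0986% of all genes were, with a median of -0.05, and 2 members, TP53I3 and PLK2, were lower at an unadjusted p under 0.05, where 4.54% of all genes passed in either direction. On the unsorted arrays replicate 1 of both lines stood high for 10 integrated stress response genes, with mean centred levels of 1.24 in MC26 and 1.23 in M1B26 against -0.33 and -0.48 in replicate 2. With the replicate number as a block on these 4 arrays alone, a fit added after the data had been seen, TP53I3 and PLK2, 2 members, were called as lower in M1B26, where 4.22% of all genes were called. On the average of the 3 populations, 6 members rose, where 6.56% of all genes were higher, 1.53% lower and 8.09% either: TP53INP1 (1.10 ± 0.19, adjusted p = 0.00293), CDKN1A (0.91), RRM2B (0.70), BAX (0.68), RPS27L (0.65) and MDM2 (0.50 ± 0.13, adjusted p = 0.0305). TP53INP1 and RPS27L were still called when any 1 array was left out, while the count ran from 2 to 7 and the calls of MDM2, CDKN1A, BAX and RRM2B were each lost in 8 to 12 of the 18 fits without 1 array. Whether the difference between the lines itself differed between CD10+ and CD10- cells was not tested.

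**Figure D3:**
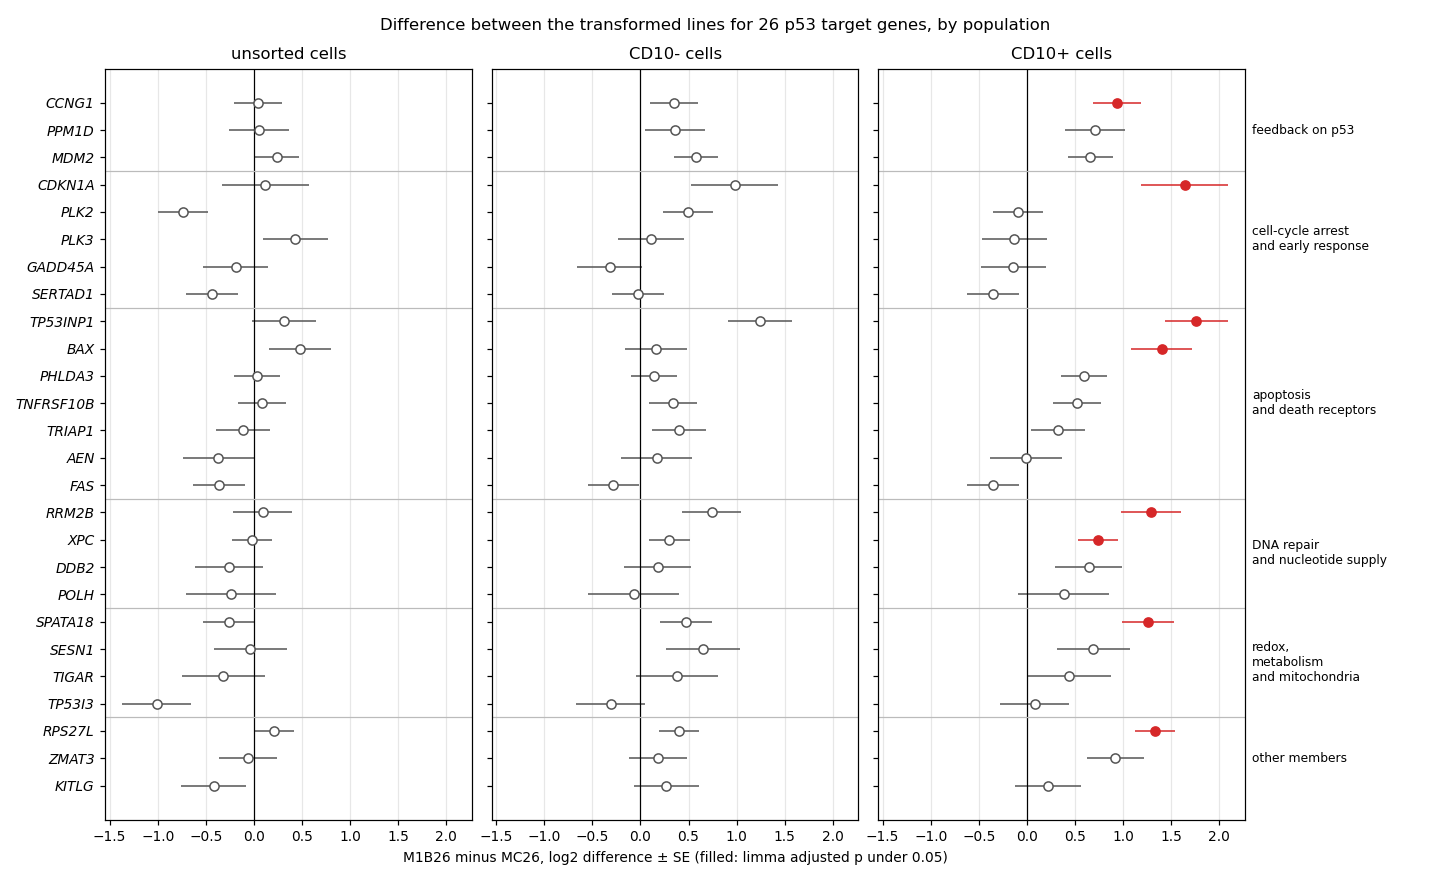
Difference of M1B26 minus MC26 in log2(intensity + 1), with bars of ± 1 SE from limma, for the 26 p53 target genes tested in unsorted, CD10- and CD10+ cells, grouped by role; filled red points passed an adjusted p of 0.05. The 8 red points are all in CD10+ cells and all above 0.

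Other genes of the pathway did not move in one direction in the same comparison. Of 22 tested p53 family members and regulators, 3 rose in CD10+ M1B26 over CD10+ MC26 cells, with a median of 0.13, where 9.12% of all genes were higher. They were HIPK2, a kinase that phosphorylates p53, TP53BP1, a DNA-damage adaptor, and ATM, the kinase of the double-strand break response. HIPK2 read 3220 and 3860 against 802 and 788, a log2 difference of 2.15 ± 0.25 (adjusted p = 6.96e-05). Of 27 further direct p53 targets outside the 31, 1 rose (STEAP3, 0.95) and 5 fell, with a median of 0.18, where 2.56% of all genes were lower. The 5 were SFN, which encodes the arrest protein 14-3-3 sigma and fell by 1.09 in log2 units (adjusted p = 0.000652), TNFRSF10A, CASP1, CD82 and SERPINB5. Of the 12 cell-division genes, 0 were called (median -0.08).

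Within a line, CD10+ cells were compared with CD10- cells, CD10 being the surface marker by which the study followed immature cells. In M1B26, TP53INP1 and RPS27L rose in CD10+ cells and no other member was called, 2 of 26 where 3.76% of all genes were higher, 2.74% lower and 6.5% changed in either direction. TP53INP1 read 160 and 126 in CD10+ cells, as above, and 63.6 and 51.8 in CD10- ones, a log2 difference of 1.29 ± 0.33 (adjusted p = 0.0295). RPS27L read 6520 and 6230 against 3640 and 3210, a difference of 0.90 ± 0.21 (adjusted p = 0.0162), with 0.79 and 0.92 from its remaining probe sets. The 2 populations were apart for both genes. BAX read 593 and 664 against 331 and 318 but missed the threshold, at 0.95 (adjusted p = 0.0985). RPS27L alone was called without CD10- M1B26 replicate 1, and 0 members were called without CD10- replicate 2, CD10+ replicate 1 or CD10+ replicate 2. With the replicate number as a block within each line on the sorted arrays alone, 7 members rose (CDKN1A, BAX, TP53INP1, ZMAT3, RRM2B, SPATA18 and RPS27L) and PLK2 fell, where 21.1% of all genes changed. That fit was added after the data had been seen.

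In MCF10A-CT and in MC26, 0 members and 0% of all genes were called between CD10+ and CD10- cells by the unpaired limma fit. The replicate differences of these populations correlated at 0.635 and 0.361, a pairing that this fit does not use. By another procedure, the paper lists genes higher in CD10+ than in CD10- MCF10A cells, the member RPS27L among them. At an unadjusted p under 0.05 there was 1 member in each, KITLG in MCF10A-CT (0.79) and TP53INP1 in MC26 (0.77), both higher in CD10+ cells, where 1.36% and 0.822% of all genes passed. For the average of the lines the unpaired fit called 0 members, against 1.14% of all genes. In that fit TP53INP1 and RPS27L, 2 members, had an unadjusted p under 0.05 (9.74% of all genes). The paired fit called TP53INP1, but its share of all genes is not given here, so this call stands without a background. When the CD10 difference in M1B26 was set against that in MCF10A-CT, the unpaired limma fit called 0 members and 1.38% of all genes, with 5 members at an unadjusted p under 0.05, where 11.2% of all genes were. The paired fit of the sorted arrays called CDKN1A, BAX, SPATA18 and RPS27L as larger in M1B26 and KITLG as smaller, 5 members against 11.5% of all genes. For the CD10 difference in MC26 against that in MCF10A-CT, the unpaired fit called 0 members and 0% of all genes, and 0 members had an unadjusted p under 0.05 (0.682% of all genes). Beside these values, CDH1 and EPCAM fell by 3.64 and 4.09 in log2 units in CD10+ against CD10- M1B26 cells, and their part in the members' values was not tested. The regulator HIPK2 rose by 1.96 in CD10+ M1B26 cells (adjusted p = 0.000181). The further p53 target SFN read 3180 and 3260 in CD10+ M1B26 cells against 10800 and 10400 in CD10- cells, the opposite direction to TP53INP1 and RPS27L.

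Each cytokine-exposed line was also compared with the control line. Averaged over populations, 9 members changed in MC26 against MCF10A-CT, 5 higher and 4 lower, where 19.7% of all genes were higher and 11.5% lower, so that the members' share, 34.6%, was close to the 31.2% of all genes. In M1B26 against MCF10A-CT 9 members changed, 8 higher and 1 lower, where 27% and 7.61% of all genes were, again the same 34.6% for members and for all genes. The 2 comparisons share the MCF10A-CT arrays. With quantile normalisation or centring on the array median, 12 members were called in MC26, 5 higher and 7 lower, where 15.8% and 18.4% of all genes were higher and 16.3% and 15.5% lower. In M1B26 those settings left 13.9% and 14.9% of all genes higher and 14.2% and 14% lower. Over the members the median difference in M1B26 was 0.25, against 0.19 over all genes. Quantile normalisation and centring brought the members' median to 0.01 and 0.05 and that of all genes to 0 and -0.01.

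The members that rose in both lines were AEN, PLK2, POLH, TIGAR and KITLG. KITLG, which encodes stem cell factor, the ligand of the receptor KIT, read 46.1 and 35.8 in CD10- MCF10A-CT cells, 158 and 146 in CD10- MC26 and 246 and 137 in CD10- M1B26 cells. The control arrays lay below all arrays of the exposed lines, and the log2 differences were 1.88 (adjusted p = 0.0023) and 2.15 (adjusted p = 0.000847). TIGAR, which lowers glycolytic flux and reactive oxygen, read 361 and 146 in CD10- MCF10A-CT, 800 and 722 in MC26 and 1180 and 830 in M1B26. Its differences were 1.72 and 2.10 in CD10- cells and 1.51 and 1.95 in CD10+ cells. PLK2, a kinase of the early p53 response, had average differences of 1.02 ± 0.15 in MC26 (adjusted p = 0.000308) and 0.91 ± 0.15 in M1B26 (adjusted p = 0.00055). It read 230 and 261 in CD10- control cells against 386 and 504 in MC26 and 687 and 557 in M1B26, with no overlap between the control and either line. POLH, the polymerase that copies past ultraviolet lesions, differed by 1.00 and 1.02 and AEN by 0.87 and 0.80 on average. In unsorted M1B26 the differences from the control were -0.42 for KITLG, -0.12 for AEN, -0.01 for POLH, 0.05 for TIGAR and 0.46 for PLK2, and in unsorted MC26 they were 0.00, 0.26, 0.23, 0.37 and 1.20, none of them called.

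The members that fell in MC26 were SESN1, TP53INP1, SPATA18 and CCNG1. SESN1, an antioxidant regulator that restrains mTORC1, read 374 and 475 in CD10- and 517 and 488 in CD10+ MCF10A-CT cells. In MC26 its CD10- arrays read 138 and 188 and its CD10+ arrays 118 and 246, all below every sorted control array. Its average difference was -1.04 ± 0.22 in MC26 (adjusted p = 0.0032) and -0.60 ± 0.22 in M1B26 (adjusted p = 0.0457). TP53INP1 read 20.3 and 27.8 in CD10- MC26 against 74.2 and 72.3 in CD10- control cells, a log2 difference of -1.58. SPATA18 differed by -0.45 ± 0.15 on average (adjusted p = 0.0366), while another of its probe sets, near background, gave 0.22 on average and 1.20 in CD10- cells, and CCNG1 by -0.42 ± 0.14 (adjusted p = 0.0356). Of the 18 fits without 1 array, 10 ended the call of SPATA18, 9 that of CCNG1 and 9 that of SESN1 in M1B26, whereas TP53INP1 and SESN1 in MC26 kept theirs in all.

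The members that rose in M1B26 beside the shared ones were MDM2, BAX and RPS27L. MDM2 read 1840 and 1290 in CD10- M1B26 against 1030 and 845 in CD10- control cells, and 1630 and 1540 against 1010 and 918 in CD10+ cells. Its average difference was 0.57 ± 0.13 (limma adjusted p = 0.00501), but another MDM2 probe set, with a mean log2 level of 6.04, gave -0.35 on average, -0.91 in CD10- and -0.70 in CD10+ cells. The remaining MDM2 probe sets above the filter gave 0.35 to 0.74 on average, the brightest of them (9.72) 0.74. BAX differed by 0.61 ± 0.19 (adjusted p = 0.0203) and RPS27L by 0.40 ± 0.12 (adjusted p = 0.0196). With quantile normalisation these calls of MDM2, BAX and RPS27L all ended (0.30, 0.39 and 0.15), and with centring those of BAX and RPS27L (0.41 and 0.20). CDKN1A just missed the threshold at 0.66 ± 0.26 (adjusted p = 0.0603), and its control arrays were far apart, at 416 and 1390 in CD10- and 421 and 1020 in CD10+ cells.

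By population, CD10- cells gave 8 members called in MC26, 5 higher and 3 lower, where 13.4% of all genes were higher, 6.54% lower and 20% either. They gave 6 in M1B26, all higher, where 19.8% of all genes were higher, 6.66% lower and 26.4% either. CD10+ cells gave 5 in MC26, 3 higher and 2 lower, where 7.99% of all genes were higher, 5.47% lower and 13.5% either. They gave 8 in M1B26, all higher, where 21.1% of all genes were higher, 5.32% lower and 26.4% either. ZMAT3 was called among these 4 comparisons in CD10+ MC26 cells only, at -0.96 (adjusted p = 0.0469). In unsorted cells 0 members were called in either line, where limma called 0.32% of all genes in MC26 and 0.674% in M1B26. At an unadjusted p under 0.05, FAS, TP53I3 and PLK2, 3 members, were higher in unsorted MC26 (7.99% of all genes passed in either direction), and 0 members passed in unsorted M1B26 (7.22%). All 12 cell-division genes rose in both lines on average, with medians of 0.99 and 1.00. The sorted control arrays stood at -1.46 to -1.08 for their mean centred level, and every other array at -0.28 to 0.67. The part of this difference in the members' values was not tested.

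On the average of the populations, the regulators CHEK1 and CHEK2, the checkpoint kinases, rose in MC26 (0.77 and 0.73) and in M1B26 (0.51 and 0.57). COP1, a ubiquitin ligase for p53, rose by 0.52 and 0.48. On the unsorted arrays CHEK1 read 555 and 454 in MCF10A-CT, 462 and 711 in MC26 and 371 and 502 in M1B26. On the same arrays CHEK2 read 249 and 216, 225 and 264, and 233 and 273. COP1 read 538 and 432, 608 and 635, and 624 and 537 there. MDM4, the partner of MDM2, fell in M1B26 by 0.61 on average, but its unsorted arrays read 703 and 460 there and 517 and 470 in MCF10A-CT. Of the 27 further direct targets tested, 3 rose and 6 fell on average in MC26, where 19.7% of all genes were higher and 11.5% lower. The stress cytokine GDF15 fell there by 2.5 in log2 units (limma adjusted p = 0.0105). Its MCF10A-CT arrays read 3040 and 2210 in replicate 2 of the sorted cells and 119 to 432 otherwise. In M1B26 3 rose and 3 fell, where 27% of all genes were higher and 7.61% lower. APAF1, the core of the apoptosome, rose there by 0.90. It read 141 and 108 in unsorted MCF10A-CT and 103 and 171 in unsorted M1B26 cells.

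Sorted cells, CD10- and CD10+ together, were compared with unsorted cells, and most of the members called were in the control line. Sorted cells enter as the mean of the CD10- and CD10+ groups. By flow cytometry the paper reports a CD10+ share that is lowest in MCF10A-CT and highest in M1B26. The mix of unsorted cells thus departs from that mean by a different amount in each line, and its part in these differences was not tested. In MCF10A-CT 8 of 26 members changed, where 6.58% of all genes were higher, 15.6% lower and 22.2% either. ZMAT3, TNFRSF10B and SERTAD1 rose in sorted cells, and MDM2, PLK2, POLH, TIGAR and KITLG fell. In MC26 0 members were called, where limma called 0.822% of all genes, although 13 members had an unadjusted p under 0.05, 11 of them lower, where 14.5% of all genes passed that limit and 8.88% were lower. In M1B26 BAX and SERTAD1 rose, 2 members where 2.56% of all genes were higher, 1.65% lower and 4.21% either.

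**Figure D4:**
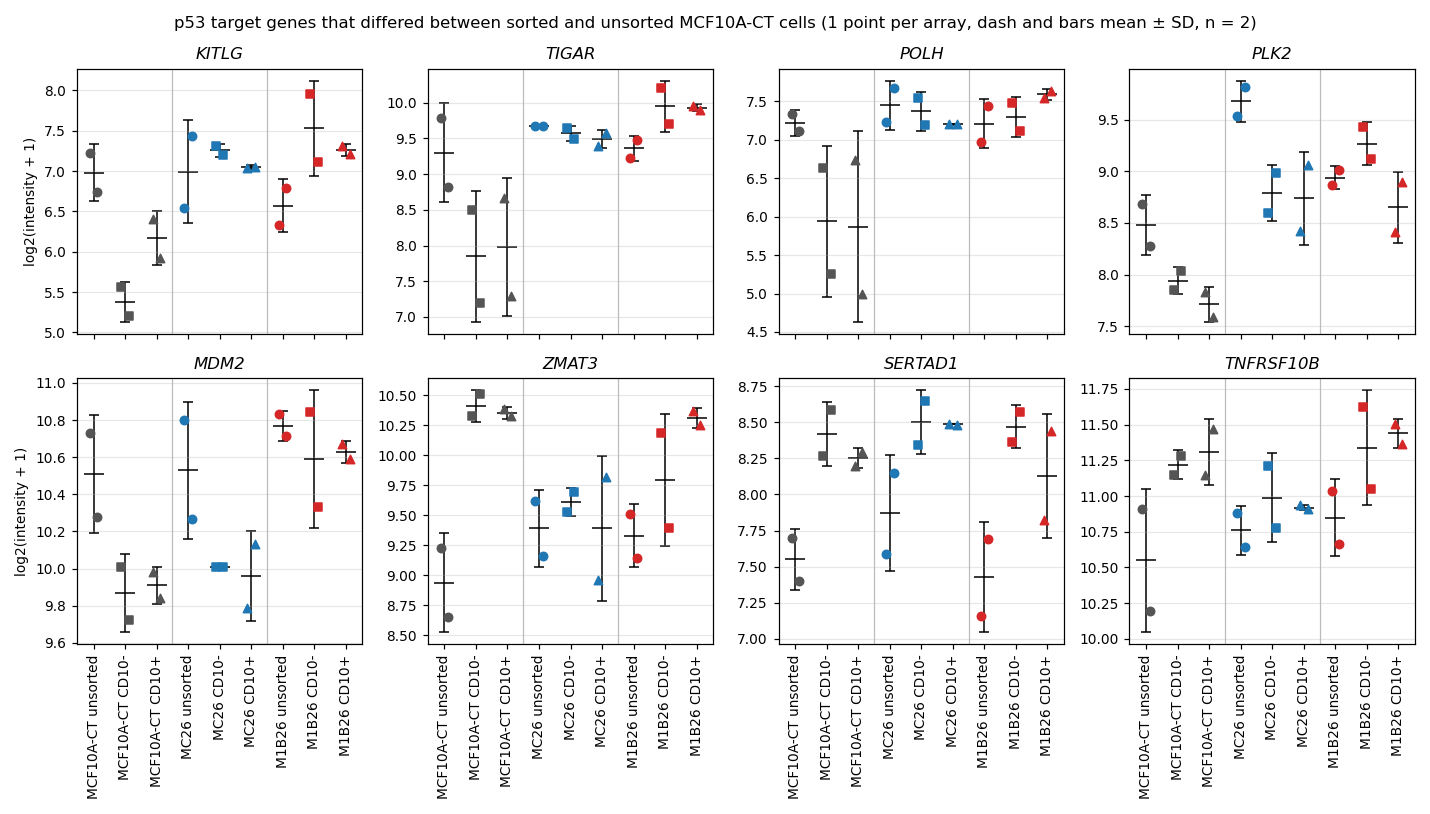
Log2(intensity + 1) of the 8 p53 target genes that differed between sorted and unsorted MCF10A-CT cells, with 1 point per array in each of the 9 groups, a dash for the group mean and bars of ± 1 SD (n = 2); each gene has a y axis of its own. KITLG and TIGAR are low in the sorted MCF10A-CT arrays, and ZMAT3 is high there.

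ZMAT3 read 598 and 401 in unsorted MCF10A-CT, 1280 and 1460 in CD10- and 1340 and 1280 in CD10+ cells. All 4 sorted arrays were far above the unsorted ones, and the log2 difference was 1.44 ± 0.26 (adjusted p = 0.00218). TNFRSF10B read 1920 and 1170 in unsorted cells and 2270 to 2840 in sorted cells, a difference of 0.71 ± 0.21 (adjusted p = 0.0285). SERTAD1, a regulator of CDK4 and of E2F-dependent transcription, read 207 and 168 in unsorted and 293 to 382 in sorted cells, a difference of 0.79 ± 0.23 (adjusted p = 0.0263), and it was also called in M1B26 at 0.87 ± 0.23 (adjusted p = 0.0468).

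KITLG read 149 and 106 in unsorted control cells and 35.8 to 84.1 in sorted control cells, a difference of -1.21 ± 0.29 (adjusted p = 0.01). TIGAR read 882 and 449 in unsorted and 146 to 405 in sorted control cells, a difference of -1.39 ± 0.37 (adjusted p = 0.0167). The groups were apart for both genes, although the sorted TIGAR arrays of replicate 1 (361 and 405) and replicate 2 (146 and 156) were far from each other. POLH read 161 and 137 against 30.8 to 106 (-1.32 ± 0.41, adjusted p = 0.0316), while another POLH probe set gave 0.05. PLK2 read 410 and 309 against 192 to 261 (-0.65 ± 0.23, adjusted p = 0.0498). MDM2 read 1700 and 1240 against 845 to 1030 (-0.61 ± 0.20, limma adjusted p = 0.0381). The other bright MDM2 probe set (mean log2 level 9.72) gave -0.72, and a dimmer one (6.12) gave -0.47. However, 5 other MDM2 probe sets, with mean log2 levels of 4.56 to 6.04, gave differences above 0, from 0.17 to 0.96, so its direction rests on the probe set.

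BAX in M1B26 read 187 and 204 in unsorted cells, 331 and 318 in CD10- and 593 and 664 in CD10+ cells, and sorted cells exceeded unsorted ones by 1.20 ± 0.28 in log2 units (adjusted p = 0.0235). Averaged over the lines 7 members changed, 5 higher (BAX, ZMAT3, PHLDA3, TNFRSF10B and SERTAD1) and 2 lower (MDM2 and PLK2), where 6.81% and 8.44% of all genes were, 15.2% in all. BAX had the largest average difference, 0.88 ± 0.16 (adjusted p = 0.00281), and SERTAD1 the smallest p, at 0.76 ± 0.13 (adjusted p = 0.00208). Other probe sets gave -0.24 for ZMAT3, where the rest gave 0.20 to 0.39, and -0.18 for PHLDA3. For MDM2, 3 were above 0, while the other bright one gave -0.48.

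The sorting difference itself differed between lines for 4 members. For TP53INP1 it was 0.49 in MCF10A-CT and -1.16 in MC26, and for ZMAT3 1.44 and 0.11, 2 members lower in MC26 where 2.04% of all genes were lower, 4.03% higher and 6.07% either. For TIGAR it was -1.39 in MCF10A-CT and 0.58 in M1B26, and for KITLG -1.21 and 0.83, 2 members higher in M1B26 where 9.14% of all genes were higher, 2.73% lower and 11.9% either.

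In the sorted control cells the 12 cell-division genes all fell, with a median of -1.87, and so did 6 of 22 regulators, CHEK1 (-0.95) and CHEK2 (-1.03) among them. Of all genes, 15.6% were lower in that comparison and 6.58% higher. The immediate early genes JUN, EGR1 and IER2, which respond quickly to growth factors and stress, rose there, 3 of 11 tested with a median of 0.76. Of the further direct targets, CD82 (1.26) and TNFRSF10D (0.97) rose and SFN (-0.43) and ACER2 (-0.99) fell. The part of these genes' shifts in the members' values was not tested.

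The 7 members that were never called ranged as follows. TP53I3, a quinone oxidoreductase of the redox response, ranged over 1.17 between group means on the log2 scale, DDB2, a sensor of ultraviolet damage, over 0.98, and FAS over 0.89. GADD45A, which acts in arrest and repair, ranged over 0.74, PPM1D over 0.71, PLK3, a stress kinase, over 0.51 and TRIAP1 over 0.48. TP53I3, DDB2, FAS and GADD45A had their highest mean in unsorted MC26 cells. The GADD45A arrays of sorted MCF10A-CT cells were far apart, at 706 and 1450 in CD10- and 647 and 1280 in CD10+ cells.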

How the data were processed

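RNA of 18 samples was amplified from 50 ng and hybridised to Affymetrix HG-U133 Plus 2.0 arrays. The deposited values are linear intensities that, per the submitters' processing notes, the authors computed with MAS5 in Expression Console (versions not given in the sources used here), whereas the published methods name RMA. Depth does not apply to arrays, and 2 arrays per group limit the precision. No scan date or other batch was given.

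Of 54675 probe sets, 41091 have 1 gene in the platform annotation, 1801 several and 11721 none, and 62 are controls. Each gene was represented by its probe set of highest mean, and genes whose mean log2(intensity + 1) exceeded 3.93 (an intensity of 14.3), the median of all probe sets that are not controls, were tested, 12171 of 19775. Differences are on that log2 scale, which understates changes of dim genes. One model of 9 group means was fitted in limma 3.58.1 (R 4.3.3) with a trended prior, 9 residual and 6.28 prior degrees of freedom, and Benjamini-Hochberg adjustment over all genes in each of 24 contrasts. Where nothing says that cultures were separate, p-values measure only the spread between these arrays. Replicate numbers pair the sorted arrays of a line: the replicate differences of CD10- and CD10+ cells correlated at 0.635 (MCF10A-CT), 0.361 (the MC26 line) and 0.184 (M1B26 line), while those of unsorted and sorted cells ran from -0.0146 to 0.122. Between lines, unsorted MC26 and M1B26 correlated at 0.458 and unsorted MCF10A-CT with them at 0.0763 and 0.118.

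The members and all lists (22 of 26 p53 regulators tested, 27 of 30 further direct targets, 12 of 12 cell-division, 11 of 14 immediate early and 10 of 10 stress response genes, and markers of 4 cell types) were chosen with earlier results of these data known. Array values are printed for MDM2, CDKN1A and the 15 members with the smallest adjusted p, and up to 4 genes per other list and contrast are named. Values of CD10+ XPC, of GADD45A and a few others outside that rule were chosen after they were seen. Other normalisations, filters, pseudocounts, probe-set rules, variance models, replicate blocks and arrays left out were tried, and the scripts were tested on simulated data.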

Additional observations from a re-analysis of the deposited data

Results flagged for a closer look

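The difference between sorted and unsorted cells itself differed between lines for 4 members by a test in limma. In MC26 against MCF10A-CT it differed by -1.65 ± 0.41 for TP53INP1 (adjusted p = 0.03) and by -1.33 ± 0.37 for ZMAT3 (adjusted p = 0.045). In M1B26 against MCF10A-CT it differed by 1.97 ± 0.53 for TIGAR (adjusted p = 0.0269) and by 2.04 ± 0.41 for KITLG (adjusted p = 0.00873). For KITLG and TIGAR all 4 sorted MCF10A-CT arrays lay below both unsorted ones. Of the 18 fits without 1 array, 10 ended the call of ZMAT3 (replicate 2 of each MCF10A-CT population, unsorted MCF10A-CT 1, unsorted MC26 1, both CD10- MC26 arrays, CD10+ MC26 1 and both CD10+ M1B26 arrays), 5 that of TP53INP1 (both unsorted MCF10A-CT arrays and replicate 1 of each MC26 population), 4 that of TIGAR (unsorted MCF10A-CT 1, unsorted M1B26 1, CD10- M1B26 1 and CD10+ M1B26 2) and 1 that of KITLG (unsorted M1B26 1), and 4 of 11 other settings ended that of ZMAT3.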

How the results depend on the processing

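Of 45 results for single members, 44 never changed direction and 15 passed the threshold under every alternative. They cover averaged differences, CD10+ against CD10- cells, CD10+ M1B26 against CD10+ MC26, and tests of a difference between lines. Calls against the control within 1 population, and sorted against unsorted calls of 1 line, were not followed gene by gene. MDM2 in M1B26 against MCF10A-CT went from 0.57 to -0.35 (adjusted p = 0.151) when probe sets specific to 1 transcript group were preferred. The cause of the changes below was not tested. The counts below, also those with 1 array left out, are given without the share of all genes called in the same fit. They therefore do not tell a change in the members from a change in all genes. The 6 members called on average between M1B26 and MC26 became 3 with quantile normalisation, with centring (2 higher, 1 lower), with the mean of probe sets and without a trended prior, and 2 without moderation. The 8 in CD10+ cells became 5 with quantile normalisation, centring or no moderation, and the median of 0.61 over the 26 tested members became 0.39 and 0.33 with the first and second of these. The 2 of CD10+ against CD10- M1B26 cells became 1 without a filter and with specific probe sets, 0 with the mean of probe sets and without moderation, and 8 with the block within lines on sorted arrays (3 on all arrays). With the 2 within-line blocks the average over lines went from 0 to 1 each time, and with the sorted arrays alone the difference between M1B26 and MCF10A-CT went from 0 to 5. Members with any line difference within a population went from 16 to 8 without moderation, and those with any sorting difference from 10 to 4 with the mean of probe sets and 2 without moderation. The median of M1B26 over MCF10A-CT went from 0.25 to 0.01 with quantile normalisation and 0.05 with centring. The replicate number as a block over all arrays gave 10 (MC26) and 9 (M1B26) members against the control, 7 for M1B26 against MC26 (8 in CD10+ cells), 7 for sorting, 16 for any line difference, 0 for unsorted M1B26 against MC26 (2 with the block on their 4 arrays alone) and 11 for any sorting difference. The alternatives for the CD10+ comparison of M1B26 with MC26 and the blocks within lines were chosen after seeing the data.

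With 1 array left out, the counts ran from 7 to 12 (MC26 against control), 7 to 10 (M1B26 against control), 2 to 7 (M1B26 against MC26), 2 to 9 (the same in CD10+ cells), 0 to 2 (CD10 in M1B26), 4 to 9 (sorting, average), 9 to 17 (any line difference) and 4 to 12 (any sorting difference). The average of M1B26 against MC26 fell to 2 without unsorted MC26 2, unsorted M1B26 1, CD10- MC26 2, CD10+ MC26 1, CD10- M1B26 1 or either CD10+ M1B26 array, and to 3 without unsorted M1B26 2 or CD10- MC26 1. Any line difference fell to 10 and 9 without CD10+ M1B26 1 and 2. Any sorting difference fell to 4 and 5 without unsorted MCF10A-CT 1 and 2, and to 6 and 5 without CD10- and CD10+ MCF10A-CT 2, and the average of sorting fell to 4 without unsorted M1B26 2. Medians ran from -0.24 to 0.17 (CD10 in MC26), 0.03 to 0.41 (CD10 in M1B26), -0.22 to 0.21 and 0.03 to 0.38 (the CD10 differences of MC26 and M1B26 against control) and 0.37 to 0.76 (M1B26 against MC26, CD10+).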

Other observations

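The 2 arrays of a group differed by a pooled SD of 0.56 on the log2 scale for POLH, 0.55 for CDKN1A and 0.52 for TIGAR, and by 0.16 for XPC. In both sorted populations of MCF10A-CT, CDKN1A was higher in replicate 2 (1390 and 1020) than in replicate 1 (416 and 421), and TIGAR was lower in replicate 2 (146 and 156) than in replicate 1 (361 and 405).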
